A study of Arabidopsis thaliana with 32 samples.

Results

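In roots of the wild type Col-0, 164 genes were listed by the authors as raised by zaxinone and were absent from the lists of the d14, kai2 and max2 mutants. They were 164 of the 937 genes raised in Col-0, and of the 3443 genes listed in at least 1 of the 4 genotypes. Members were chosen by 2 conditions: listing in the Col-0 table alone, and a mean FPKM (fragments counted per length of transcript and per depth of the library) that was higher in the 4 zaxinone libraries than in the 4 mock libraries. All Col-0 values of these genes were therefore used to choose them, and they are described below without a test.

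The study compared RNA from roots of 5-week-old Arabidopsis thaliana plants, kept in liquid culture, 6 h after 20 µM zaxinone in 1% acetone or the same solvent alone. The groups used here were Col-0 mock and Col-0 zaxinone, with 4 libraries each. The mutant groups (d14, kai2 and max2, each mock and zaxinone, 4 libraries each) enter only through the genes their tables list. The labels name no alleles for the mutants and do not say whether the libraries of a group came from separate plants or cultures.

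Zaxinone is a small apocarotenoid, formed when carotenoids are cut, that was first described as a growth regulator of rice. D14 is an α/β-hydrolase that perceives strigolactones, a class of hormones also made from carotenoids, and KAI2 is its paralog in karrikin responses. Both act through the F-box protein MAX2, which marks repressor proteins for degradation. Setting the wild type beside mutants of these proteins asks which responses to zaxinone need them.

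Absence from a mutant table does not measure a lack of response. The authors' deposited tables list a gene when its adjusted p is under 0.05 and its log2 fold change is 1 or more in size, so a mutant in which a gene came just short of either limit is treated like one in which it did not move. Levels of unlisted genes in the mutants were not analysed here, so the difference of the zaxinone effect between Col-0 and a mutant was not tested for any of the 164 genes. The Col-0 libraries were 67.6 to 101.9 M fragments deep (M stands for mega), while the d14 libraries held 46.9 to 73.9 M, those of kai2 held 42.8 to 68.8 M and those of max2 held 47.9 to 64.1 M. The part of depth in the listing was not tested. Of 6 lists of cell type markers for root tissues and shoot, none held a member, and among 25 matched shoot and photosynthesis genes 1 was listed lower and none higher in Col-0.

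The members were mostly weakly expressed genes with small changes. Over the 164 genes the median level was 0.285 FPKM in mock and 0.726 in zaxinone roots, and the median log2 fold change in the edgeR fit was 1.34, against 1.60 over all 937 genes raised in Col-0. By the authors' deposited values, 27 members reached a log2 fold change of 2 and 60 lay under 1.2. The authors' listing called 3.74% of the 25041 genes tested in Col-0 as higher and 7.33% in either direction, and since that listing chose the members, their count carries no evidence of its own. In 126 of the 164 genes, or 76.8%, each zaxinone library lay above each mock library. Among all listed genes of Col-0 46.6% were raised without overlap, and among the 937 raised genes 91.4% were.

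The large folds belonged to genes near the limit of detection. Of the members 83 had a mean of under 50 counts over the 8 libraries, with a median log2 fold change of 1.66 and up to 5.95 in the authors' deposited table. The 81 members with at least 50 counts had a median of 1.15 and none was over 1.89. The plot of level against change shows this as a slope from upper left to lower right.

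**Figure D1:**
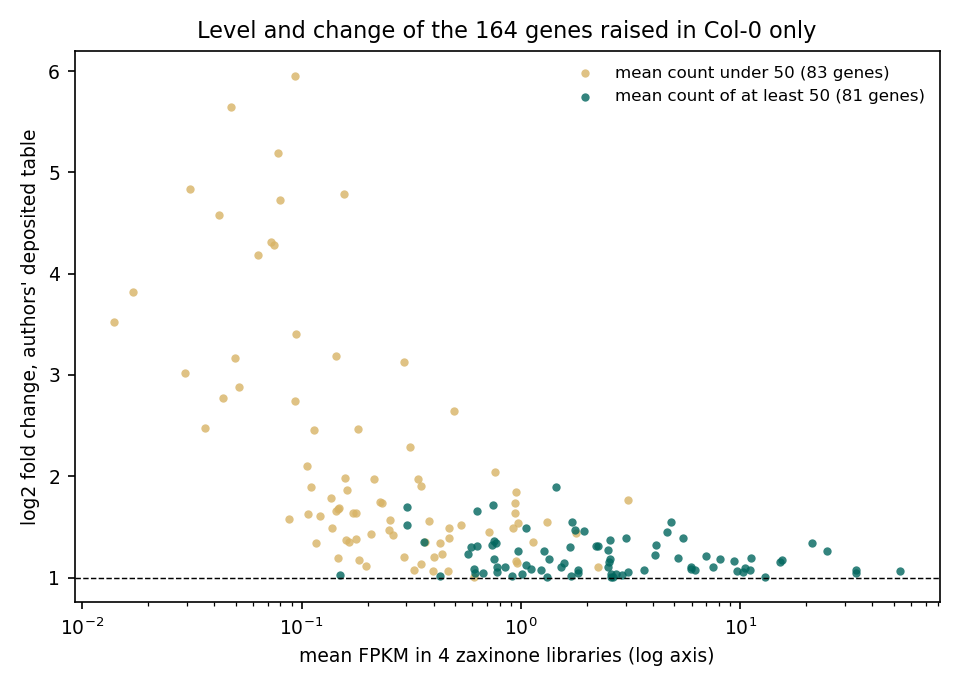
Each point is 1 of the 164 genes, with the mean FPKM over the 4 Col-0 zaxinone libraries on a log axis and the log2 fold change of the authors' deposited table on the vertical axis. Yellow points are the 83 genes with a mean count under 50 and green points the 81 others, and the dashed line is the authors' limit of 1.

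Genes raised in Col-0 were then set side by side by the number of mutant tables that listed them, in either direction, which was 462 genes for all 3 mutants, 194 for 2, 117 for 1 and the 164 for none. The shares moved in order with that number. Zaxinone levels under 1 FPKM were found in 61.0% of the members and in 16.0% of the genes listed in all 3 mutants, and mean counts under 50 in 50.6% and 12.6%. An adjusted p over 0.01 in the authors' deposited table was found in 40.2% of the members and in 2.597% of that larger set. The median standard deviation between libraries, taken on the log2 scale, was 0.53 and 0.32. Protein-coding genes made up 83.5% of the members and 95.5% of the genes listed in 3 mutants. These are shares of genes chosen from the same libraries and carry no test.

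**Figure D2:**
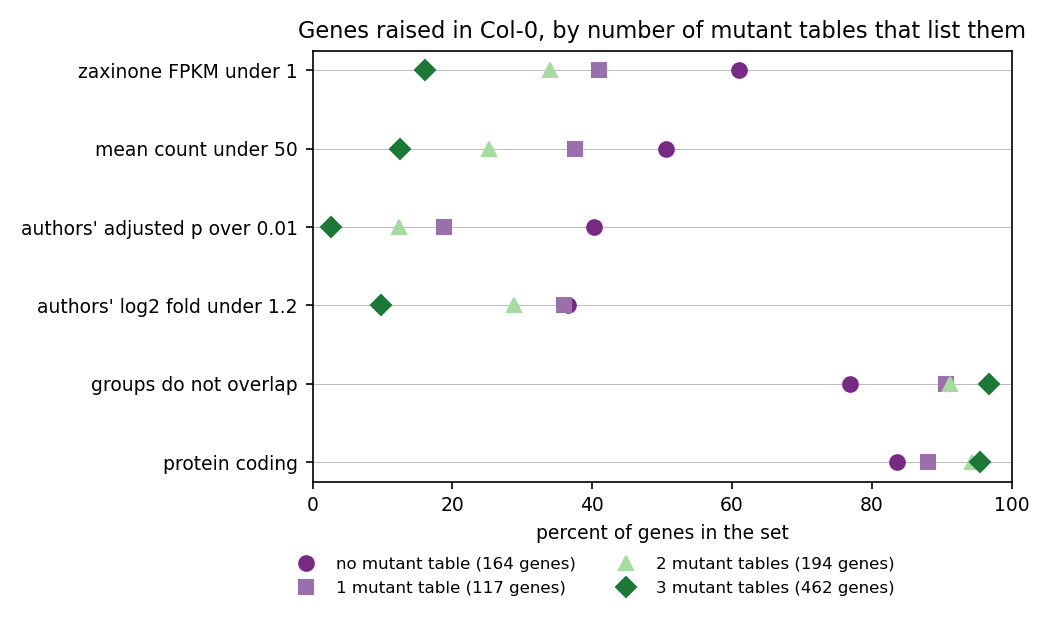
Each row is a property and each symbol the percent of genes that have it, for genes raised in Col-0 and listed in no (164), 1 (117), 2 (194) or 3 (462) mutant tables. The members of no mutant table lie farthest towards low levels, high adjusted p-values and overlapping groups.

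The library of zaxinone replicate 3 stood apart among the members. It was the highest of the 4 zaxinone libraries in 87 of the 164 genes, or 53.0%, against 23.8% of the genes listed in 3 mutants, where replicate 1 was the highest in 51.7%. Its median level relative to the mean of the 4 zaxinone libraries was 1.21 in the members, beside 0.80, 0.87 and 0.98 for replicates 1, 2 and 4. The same library was the lowest of the 4 in 64.2% of the 201 genes lowered in Col-0 alone. It was also the deepest library of the series, at 101.9 M fragments. Members with at least 50 counts had it as the highest in 55.6% of cases and members with fewer in 50.6%. Without it the median log2 fold change of the members was 1.2004, 35 of them dropped under 1, and the count at or over 1 in the edgeR fit went from 163 to 128. What this library has in common with the choice of members was not tested.

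**Figure D3:**
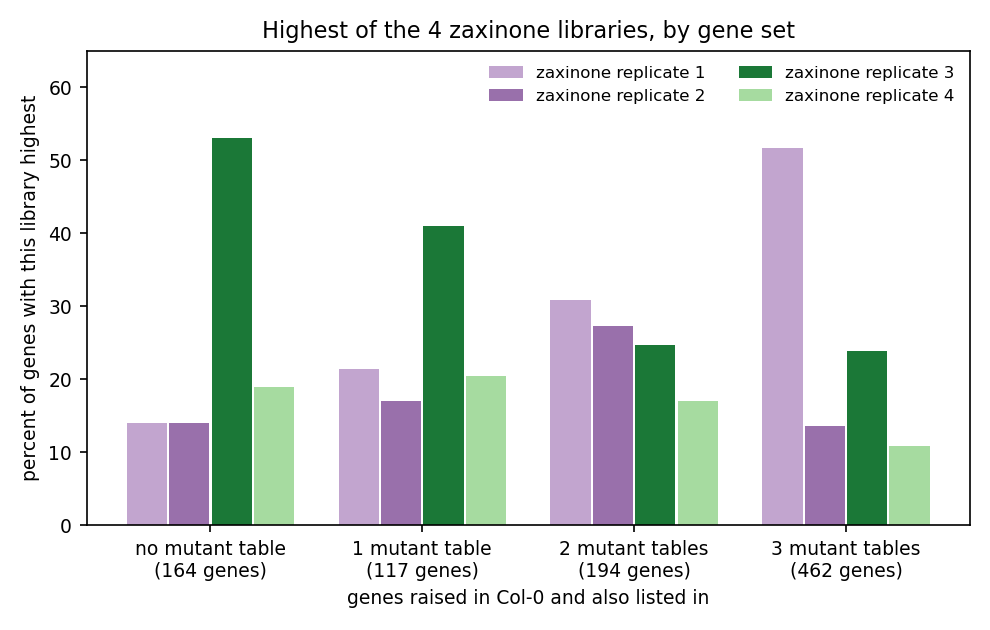
Bars give the percent of genes in which each of the 4 Col-0 zaxinone libraries held the highest normalized count, for genes raised in Col-0 and listed in no, 1, 2 or 3 mutant tables. Replicate 3 leads with 53.0% in the genes of no mutant table, and replicate 1 with 51.7% in those of 3.

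Regulators of meristems and organ growth were among the members. BBM (AT5G17430, chr5:5742393-5745748 in RefSeq TAIR10.1), the AP2-type transcription factor BABY BOOM of embryos and root stem cells, had normalized counts of 363, 214, 318 and 370.4 in mock replicates 1 to 4. With zaxinone it had 565, 835, 1276 and 1012. The groups did not overlap and the change was 1.54 ± 0.26 (SE) on the log2 scale. In whole roots, more cells of a type and more RNA per cell cannot be told apart. RGF5 (AT5G51451), a peptide of the root meristem growth factor family, had 46.5, 40.8, 41.5 and 33.2 in mock and 68.4, 85.96, 191 and 55.8 in zaxinone. Replicate 3 alone carried much of that difference of 1.31 ± 0.39, which was 0.79 without it. A list of the root stem cell niche was written after the members had been seen. Of its 16 matched genes BBM and RGF5 were listed as higher in Col-0 and none as lower, and both were members. With the members known beforehand, that count carries no evidence of its own.

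Genes of auxin and cytokinin signalling and a homeobox gene were also members. IAA30 (AT3G62100), of the Aux/IAA repressor family of auxin signalling, had 184, 129, 173 and 201 in mock and 335, 407, 593 and 467 in zaxinone, a change of 1.39 ± 0.24. Every zaxinone value was higher than every mock value. It was the single gene listed in Col-0 out of 64 on the auxin list. The auxin response factor gene ARF20, which was not on that list, had 52.1 ± 14.8 and 108 ± 29.8 (SD, n = 4). HB4 (AT2G44910), a class II homeodomain-leucine zipper gene of shade avoidance, had 39.2, 20.9, 31.9 and 24.6 in mock and 63.9, 64.5, 89.9 and 73.2 in zaxinone. The groups did not overlap, with a change of 1.31 ± 0.31. RR16 (AT2G40670), a type-A response regulator that is induced by cytokinin and dampens its signal, was low in both groups, at 9.11, 4.97, 2.13 and 3.69 and 17.1, 18.6, 12.1 and 12.8. Its groups did not overlap either, and the change of 1.55 ± 0.48 rests on few counts. Among 37 matched cytokinin genes 7 were listed higher and 4 lower in Col-0, and RR16 was the one member. The other raised genes of that list were genes of cytokinin metabolism. Of its response regulators RR16 alone was listed higher. ARR15 and RR17 were listed lower, at -1.38 and -1.91 in the authors' deposited table, ARR15 in no mutant.

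Precursors of 2 microRNAs were listed, and their mature sequences are shown to identify them, with the seed (bases 2 to 8) in capitals. Both come from the RefSeq TAIR10.1 annotation, at chr5:16660469-16660489, minus strand, and at chr1:22084310-22084330, minus strand, respectively.
miR319b: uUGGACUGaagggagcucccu
miR5647: uCAAGUUUgaugacgauucca
The seeds differ. The miR319 family targets TCP transcription factors that limit leaf growth. The libraries were made from polyadenylated RNA, so the counts do not measure the mature microRNA. MIR319b overlaps no other annotated gene. MIR5647 overlaps one on the other strand, and the use of strand in counting is not stated. Reads of its precursor therefore cannot be told apart from those of that gene. MIR319b had normalized counts of 5.47, 3.98, 6.39 and 1.23 in mock and 13.5, 11.7, 17.01 and 11.6 in zaxinone, without overlap and with a change of 1.61 ± 0.48. MIR5647 had 21.9, 31.8, 61.7 and 43.1 and 40.5, 83.02, 159 and 67.4, its groups overlapped, and its change of 1.15 ± 0.44 was 0.69 without zaxinone replicate 3.

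**Figure D4:**
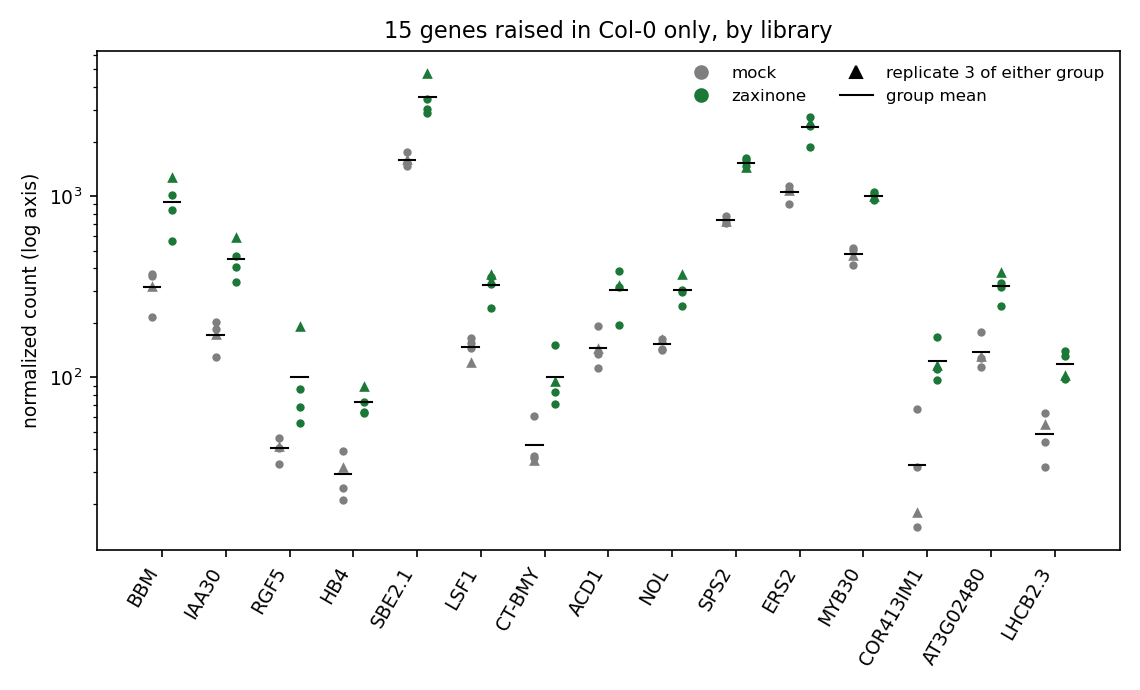
Normalized counts on a log axis for 15 of the genes described, 4 mock (grey) and 4 zaxinone (green) libraries each, with the group mean as a line and replicate 3 as a triangle. The groups do not overlap in any of the 15, and replicate 3 is the highest zaxinone library in BBM, IAA30, RGF5, HB4 and SBE2.1, among others. The 15 were picked by hand, and described genes with overlap, such as BAM5 and PRXCA, are not shown. Groups did not overlap in 80.2% of all members with a mean count of at least 50 and 73.5% of the others.

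Some starch genes were among the members. On a list of 40 starch genes written after the members had been seen, 32 matched, 4 were listed as higher in Col-0, none as lower, and all 4 were members. Since the members were known when that list was written, this count carries no evidence of its own. SBE2.1 (AT2G36390, chr2:15264211-15270092), a starch branching enzyme, had 1759, 1463, 1593 and 1516 in mock and 2877, 3034, 4753 and 3425 in zaxinone. The change was 1.15 ± 0.19 without overlap, and its level of 15.1 ± 3.77 FPKM was among the 8 highest of the members. LSF1 (AT3G01510), a protein of the glucan phosphatase family that starch breakdown needs, had 164, 154, 121 and 145 and 327, 241, 369 and 358. The change was 1.15 ± 0.23 and the groups did not overlap. The β-amylase genes behaved less evenly. CT-BMY (AT4G17090), the chloroplast β-amylase that releases maltose from starch, had 61.04, 35.8, 35.1 and 36.9 in mock and 71.1, 83.02, 95.6 and 149.99 in zaxinone. Zaxinone replicate 4 lay far above its group and mock replicate 1 above the other mock libraries, and the change was 1.23 ± 0.33. BAM5 (AT4G15210), a β-amylase outside the chloroplast, had 12.8, 18.9, 3.19 and 4.92 and 18.9, 19.5, 27.5 and 63.9, with overlap. On a broader sugar and starch list 7 of 52 genes were listed higher and 2 lower, BAM5 as the one member. The pfkB-type sugar kinase gene AT5G51830 was higher as well, at 15.9 ± 1.44 FPKM in mock and 33.7 ± 4.38 in zaxinone (SD, n = 4). PMDH2, a malate dehydrogenase of peroxisomes, had normalized counts of 27.2 ± 5.64 and 68.1 ± 10.96.

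Genes of the plastid followed, although the tissue was root. ACD1 (AT3G44880), the pheophorbide a oxygenase that opens the ring of chlorophyll during its breakdown, had 134, 112, 145 and 191 in mock and 193, 387, 325 and 314 in zaxinone. The lowest zaxinone value lay just above the highest mock value, and the change was 1.07 ± 0.27. NOL (AT5G04900), a subunit of the chlorophyll b reductase of the same route, had 163, 141, 162 and 143 and 248, 305, 372 and 294. Its groups did not overlap, with a change of 1.001 ± 0.22. A list of chlorophyll breakdown was also written after the members had been seen. Of its 10 matched genes 3 were listed higher in Col-0 and none lower, and 2 of the 3 were members. That count carries no evidence of its own either. LHCB2.3, a light harvesting protein of photosystem II, had 43.7, 63.7, 55.3 and 31.99 in mock and 98.1, 139.7, 103 and 130.2 in zaxinone, which is 0.966 ± 0.166 FPKM. Its groups did not overlap, while the shoot list held no raised gene.

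Enzymes of prenyl diphosphate synthesis, which feeds carotenoids, plastoquinone and other isoprenoids, gave an even and an uneven example. SPS2 (AT1G17050), the solanesyl diphosphate synthase that makes the side chain of plastoquinone, had 733, 779, 728 and 711 in mock and 1579, 1467, 1449 and 1627 in zaxinone. The spread within each group was small beside the change of 1.05 ± 0.15. DXPS1 (AT3G21500), annotated as a 1-deoxy-D-xylulose 5-phosphate synthase, had 0 counts in all 4 mock libraries and 1, 30, 3 and 5 counts in the zaxinone libraries. Against a floor of 3 counts per library it was at least 3.05-fold higher. Replicate 2 held most of its counts, and without it the mean of 3.05 normalized counts lay under the floor of 3.15, which leaves no bound. A list of 18 genes of prenyl diphosphate synthesis was written after the members had been seen. On it SPS2 and DXPS1 were listed as higher and none as lower, a count that carries no evidence of its own.

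Genes annotated as late embryogenesis abundant (LEA), seed maturation or cold-regulated were 4 of the members, or 2.44%. The shares were 5.98%, 0.515% and 2.597% of the genes raised in Col-0 and listed in 1, 2 and 3 mutants. LEA proteins protect cells during drying. The LEA gene AT3G02480 (chr3:512220-513036) had 178, 128, 131 and 113 in mock and 332, 247, 381 and 314 in zaxinone. The groups did not overlap, with a change of 1.21 ± 0.24. COR413IM1 (AT1G29395, chr1:10288129-10289666), a cold-regulated protein of the inner chloroplast envelope, had 66.5, 14.9, 18.1 and 31.99 and 97.2, 166, 117 and 110.5. It had the largest change among members with at least 50 counts, 1.89 ± 0.43 without overlap, and mock replicate 1 was the highest mock library. The seed maturation gene SMP1 had 8.25 ± 3.48 and 29.8 ± 10.1, and AtLEA4-1 had 3.21 ± 2.23 and 11.5 ± 1.72 (SD, n = 4). On the list of abscisic acid genes, the hormone that such genes often follow, 16 of 50 were listed higher in Col-0, 13 of them also in all 3 mutants, 4 were listed lower, and none was a member.

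Promoters of 2 members are shown because they carry the ACGTG letters that bZIP and bHLH transcription factors can read, a pattern found in a larger share of raised genes than of all genes. The windows run from 250 bases before to 50 after the annotated start in RefSeq TAIR10.1, 5′ to 3′ on the strand of the gene, with ACGTG on either strand in capitals (CACGT where it is read on the other strand, CACGTG where both overlap). They lie at chr3:511970-512269, plus strand, for AT3G02480 and at chr1:10289617-10289916, minus strand, for COR413IM1.
AT3G02480: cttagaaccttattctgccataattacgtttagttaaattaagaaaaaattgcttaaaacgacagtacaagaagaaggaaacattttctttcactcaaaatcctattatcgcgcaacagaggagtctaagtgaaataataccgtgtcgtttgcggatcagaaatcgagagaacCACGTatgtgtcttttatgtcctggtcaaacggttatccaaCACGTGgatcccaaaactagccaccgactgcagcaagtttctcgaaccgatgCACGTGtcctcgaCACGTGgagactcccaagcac
COR413IM1: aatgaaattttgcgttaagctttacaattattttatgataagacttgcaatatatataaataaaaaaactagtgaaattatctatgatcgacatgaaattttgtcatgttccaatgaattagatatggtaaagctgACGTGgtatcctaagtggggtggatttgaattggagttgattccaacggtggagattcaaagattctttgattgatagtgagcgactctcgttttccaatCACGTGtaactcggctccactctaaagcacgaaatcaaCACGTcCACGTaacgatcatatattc
Both windows hold 4 separate stretches each, and in each window the last 2 lie after the annotated start. The nearest match before the start lies 35 bases before it in AT3G02480 and 13 in COR413IM1. Over the 137 protein-coding members 42.3% of such windows held ACGTG, against 40.1% for genes raised in Col-0 and listed in 3 mutants and 26.7% of the 27443 promoters of all protein-coding genes. The palindrome CACGTG, which contains ACGTG on both strands, was found in 16.8%, 13.6% and 7.68%. The letters TGACG, the core read by TGA factors, were found in 21.2% of the members, 35.4% of the genes listed in 3 mutants and 23.1% of all. TTGAC, the core of the W-box, was found in 51.8%, 56.9% and 50.5%. The letters CCGAC stood in 13.9%, GCCGCC in 4.38%, AATATCT in 15.3% and CACATG in 18.98% of the members, beside 15.05%, 2.57%, 11.5% and 12.9% of all promoters. A match describes letters in the window and no binding.

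Genes described as transcription factors, response regulators or Aux/IAA proteins made up 15 members, or 9.15%, with RR16 and IAA30 among them. The shares were 5.13%, 11.9% and 11.0% of the genes raised in Col-0 and listed in 1, 2 and 3 mutants. MYB30 (AT3G28910), a regulator of cell death in defence, had 502, 516, 475 and 418 in mock and 1048, 955, 995 and 1021 in zaxinone. Its groups were far apart, with a change of 1.07 ± 0.17. MYB13 had 482, 319, 392 and 566 and 776, 870.3, 1037 and 1059, also without overlap. The bHLH gene AT1G10585 had 0.911, 0, 1.06 and 0 in mock and 4.499, 46.9, 2.43 and 3.49 in zaxinone. Replicate 2 held nearly all of it, and its change of 4.49 ± 1.25 was 2.48 without that library. MYB62, a MYB factor of phosphate starvation, and the B3-domain gene AT2G31420 had no count in mock and 4, 10, 2 and 3 and 4, 2, 7 and 8 counts in the zaxinone libraries. Genes of reproductive development stood at similar depth. The petal regulator gene RBE had 1.73 ± 1.26 and 9.84 ± 6.47 normalized counts, and FIS2, of the polycomb complex of seeds, 0.84 ± 1.04 and 6.44 ± 3.43, both with overlap. VIM2, which takes part in the maintenance of DNA methylation, had 245 ± 29.9 and 501 ± 128 without overlap.

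Hormone receptors and synthesis genes were few. ERS2 (AT1G04310, chr1:1154740-1157813), an ethylene receptor, had 1077, 907, 1074 and 1139 in mock and 1874, 2446, 2552 and 2738 in zaxinone. The lowest zaxinone value lay far above the highest mock value, and the change was 1.195 ± 0.17. Among 33 matched ethylene genes ERS2 was the one listed as higher, and 2 were lower. LOX3 (AT1G17420), a lipoxygenase of jasmonate synthesis, had 3.64, 2.98, 0 and 2.46 and 23.4, 45.9, 18.6 and 9.301. It had the largest change of any gene on the pathway lists among the members, 3.33 ± 0.66, from a very low level. Of 34 matched jasmonate genes 3 were listed higher and 2 lower. On the strigolactone and karrikin list 1 of 19 genes was listed higher and 1 lower in Col-0, and on the carotenoid and apocarotenoid list 3 of 18 were higher, with no member on either.

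Immune receptor genes numbered 5 among the members, or 3.05%. The shares were 3.42%, 1.55% and 0% of the genes raised in Col-0 and listed in 1, 2 and 3 mutants, so the members lay close to the genes of 1 mutant. On the list of salicylic acid and immunity 22 genes matched and none was a member. There PAD3 was the 1 gene listed higher in Col-0, and 3 were listed lower, PAD4, SARD1 and FMO1. RLP32 (AT3G05650), a receptor-like protein that perceives bacterial proteins, had 63.8, 43.8, 79.8 and 68.9 in mock and 94.5, 141, 402 and 167 in zaxinone. Replicate 3 stood far above the other 3 zaxinone libraries, and without it the change of 1.65 ± 0.41 was 1.06. AT4G11340, of the TIR-NBS-LRR class, had 9.11, 14.9, 15.96 and 24.6 and 83.7, 22.5, 57.5 and 24.4, with overlap. CNGC11, a cyclic nucleotide-gated channel linked to hypersensitive cell death, had 10.02, 2.98, 7.45 and 8.61 and 130.5, 3.91, 21.1 and 4.65. Replicate 1 alone set its change of 2.46 ± 0.93, which was 0.49 without it. The cysteine protease gene CEP1, of programmed cell death, had 129 ± 29.5 and 334 ± 189.9, with overlap. Of 7 kinase genes ARCK1, a receptor-like kinase of osmotic stress, had 12.03 ± 8.305 and 47.6 ± 14.8 without overlap, and CRK14 had 8.14 ± 4.95 and 22.6 ± 8.44 with overlap. MLO14, of the MLO membrane protein family, had 54.7 ± 5.18 and 141 ± 27.5 without overlap. The heavy-metal-binding genes AT5G52760 and AT5G52700, described as copper transport proteins, had 43.8 ± 11.8 and 28.001 ± 4.68 in mock and 129 ± 32.1 and 71.1 ± 30.1 in zaxinone.

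Cell wall genes were 9 of the members, or 5.49%. They made up 5.13%, 1.55% and 2.597% of the genes raised in Col-0 and listed in 1, 2 and 3 mutants, and 6.97% of the 201 genes lowered in Col-0 alone. On the cell wall list 2 of 49 matched genes were listed as higher and 6 as lower, with EXPA10 as the one member. The pectin lyase-like gene AT5G48900 had 1045, 977, 905 and 822 in mock and 1838, 1938, 2327 and 2344 in zaxinone. The groups were well apart, with a change of 1.17 ± 0.17. PME5, a pectin methylesterase that alters wall stiffness, had 681, 565, 684 and 604 and 735, 1009, 2271 and 1318. Its change of 1.07 ± 0.29 was 0.69 without replicate 3. EXPA10, an expansin that loosens walls, had 28.99 ± 10.5 and 60.96 ± 14.6, and the invertase or pectin methylesterase inhibitor gene AT3G12880 had 4.89 ± 2.496 and 15.9 ± 3.5001, neither with overlap. The rhamnogalacturonate lyase gene AT4G38030 had no count in mock and 5, 3, 8 and 7 counts in zaxinone.

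The most strongly expressed members are compared per length. AT5G38200, annotated as a class I glutamine amidotransferase-like protein, was first, with 25.6 ± 1.22 FPKM in mock and 53.7 ± 6.89 in zaxinone (SD, n = 4). It was followed in zaxinone by AT5G51830, already given, and by the class III peroxidase gene AT2G18150, with 16.2 ± 5.32 and 33.7 ± 3.89. The levels of these last 2 genes did not differ beyond their spread. AT4G33540, a metallo-β-lactamase family gene, had 10.3 ± 0.655 and 24.9 ± 1.36, and AT1G31950, of the terpene cyclase family, 8.39 ± 1.27 and 21.3 ± 5.87. In normalized counts AT4G33540 had 1664, 1437, 1547 and 1591 in mock and 3599.8, 3603, 3975 and 3782 in zaxinone. The spread of both groups was small beside the change of 1.26 ± 0.15. AT5G48900, SBE2.1 and the DnaJ chaperone gene AT1G56300 came next, at 15.4 ± 2.01, 15.1 ± 3.77 and 12.9 ± 1.301 FPKM in zaxinone, which did not differ beyond their spread. NUDT2 and NUDT10, nudix hydrolases that cut nucleoside diphosphate derivatives, had normalized counts of 244 ± 48.03 and 628 ± 30.1 in mock and 513 ± 53.001 and 1429.6 ± 421 in zaxinone.

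Further enzymes and chaperones are given in normalized counts (± SD, n = 4, where no values per library are given). The cyclophilin gene AT2G21130, which belongs to a family of protein folding enzymes, had 207, 202, 171 and 242 in mock and 398, 439, 578 and 463 in zaxinone, without overlap. The disulfide isomerase-like gene AT3G62510 had 8.63 ± 1.45 and 23.4 ± 10.6 without overlap. GLYI7, of the glyoxalase I family that detoxifies methylglyoxal, had 449, 245, 451 and 600.5 and 532, 1029.5, 1195 and 981, and its groups overlapped. The gene AT1G04150, of a C2 domain family, had 40.01 ± 12.2 and 103 ± 32.04, and AT3G24360, of the Clp protease and crotonase family, had 48.7 ± 6.58 and 121 ± 16.8, neither with overlap. The oligopeptide transporter gene OPT2 had 23.7, 23.9, 10.6 and 14.8 and 34.2, 38.1, 53.5 and 32.6 without overlap. CYP71B19, the one cytochrome P450 gene among the members, had 10.5 ± 2.14 and 27.5 ± 11.7 with overlap.

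At the other end, 9 members had no count in any mock library. NOGC1 (AT1G62580), of the flavin-containing monooxygenases, had the largest log2 fold change of the authors' deposited table among the members, 5.95. Its counts with zaxinone were 5, 9, 25 and 12, so it was at least 3.77-fold higher against the floor of 3 counts. The lower bounds of the 9 genes ran from 1.11 to 3.77, and without the highest zaxinone library of each gene 5 of the 9 means were still over the floor, NOGC1 at 2.88-fold. The hypothetical protein gene AT3G18282 had 5, 5, 4 and 2 counts. The RING-type genes AT5G62800 and AT1G74990 had 3, 4, 19 and 5 and 2, 3, 10 and 2 counts with zaxinone. The monooxygenase genes AT1G12130 and AT5G61290 were measured better, at 22.5 ± 8.06 and 65.7 ± 8.09 normalized counts in mock and 58.7 ± 23.4 and 143 ± 24.4 in zaxinone.

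Non-coding genes and pseudogenes numbered 27 of the 164, among them 8 pseudogenes, 2 transcribed pseudogenes, 7 long non-coding RNAs and 3 antisense RNAs. Of all members 54, or 32.9%, overlapped another annotated gene, and 43, or 26.2%, overlapped one on the other strand. For genes raised in Col-0 and listed in 1, 2 and 3 mutants the shares were 23.1%, 23.2% and 25.5%. On the other strand they were 22.2%, 19.1% and 22.3%. Because the use of strand in counting is not stated, reads of such members cannot be told apart from those of the partner. Of the 54, only AT4G08985 overlapped a gene that was itself listed as higher in Col-0. In all, 12 members, or 7.32%, had another member within 10 kb. Of the genes listed in 1, 2 and 3 mutants, 4.27%, 5.67% and 6.06% had a member that near. The pair AT5G18633 and AT5G18636, related to retrotransposons, had 16.1 ± 7.14 and 7.29 ± 5.78 in mock and 48.98 ± 13.7 and 23.98 ± 9.44 in zaxinone, neither with overlap. The pseudogene AT4G08114 had 0.911, 0, 1.06 and 0 in mock and 0.9, 5.86, 8.91 and 8.14 in zaxinone, with overlap. Its neighbour AT4G08115, also a pseudogene, had 22.4 ± 10.7 in mock and 31.5, 54.7, 168 and 33.7 in zaxinone, with overlap. Without replicate 3, which was the highest, its change of 1.704 ± 0.56 was 0.85. The other pairs were AT1G08547 with NOGC1, AT4G11340 with AT4G11350, AT1G26680 with MLO14, and a pair of germin-like genes.

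That pair, AT5G39130 (chr5:15665502-15666472) and AT5G39150 (chr5:15669898-15670904), belongs to a tandem array of germin-like genes, which encode cupin proteins of the cell wall. AT5G39130 had 234, 236, 199 and 139 in mock and 615, 330.1, 429 and 344 in zaxinone. AT5G39150 had 91.1, 109, 143 and 144 and 183, 164, 264 and 608, and replicate 4 set most of its change of 1.32 ± 0.38, which was 0.74 without it. Neither gene's groups overlapped. Their neighbours GLP6, AT5G39110 and AT5G39120 were also listed as higher in Col-0, with log2 fold changes of 1.68, 1.24 and 1.27 in the authors' deposited table. They were listed in mutants too, GLP6 in all 3, AT5G39110 in d14 and kai2, and AT5G39120 in kai2. The AT5G39150 protein is 99.5% identical to that of AT5G39180, 98.6% to that of AT5G39120 and 94.1% to that of AT5G39110. The AT5G39130 protein is 97.3% identical to that of GER2 and 96.8% to that of AT5G39160. Of these relatives AT5G39180, GER2 and AT5G39160 were listed in no genotype. Reads may be shared between such copies, so the listing of single copies is uncertain.

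**Figure D5:**
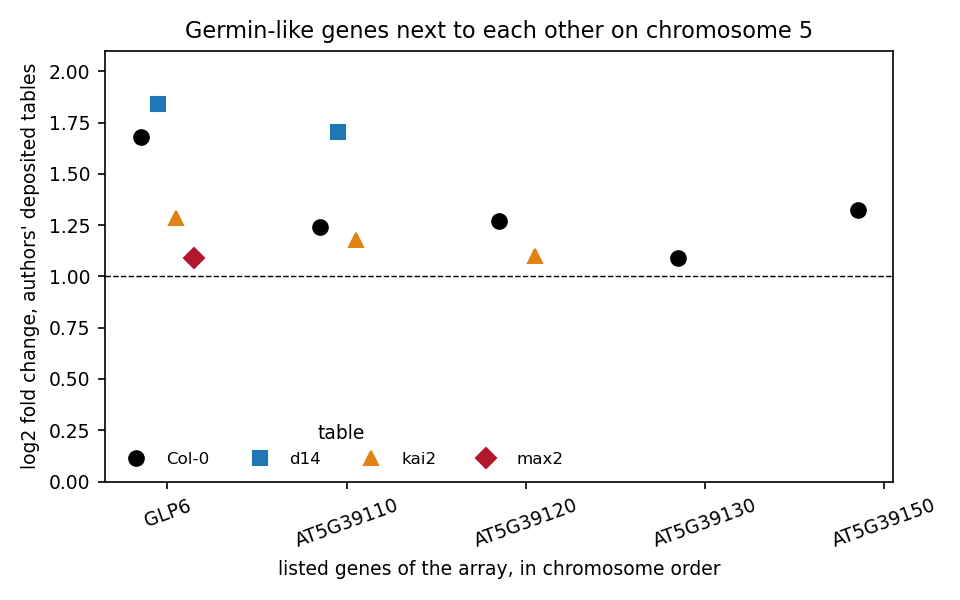
Log2 fold change of zaxinone over mock in the authors' deposited tables for the 5 listed germin-like genes of the array, by genotype, and a missing symbol means that the gene was not listed there. All 5 were listed in Col-0 at 1.09 to 1.68, and AT5G39130 and AT5G39150 in no mutant.

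Close relatives of members were looked up to see whether a similar gene was listed elsewhere. Of the 137 protein-coding members 50 had a relative of at least 70% protein identity, and 13 had one listed in any table. For genes listed in 3 mutants the counts were 149 and 87 of 441. Among the 13, 4 had a relative raised in Col-0, 5 had one raised in a mutant and 10 had one lowered in a mutant. PRXCA, a peroxidase of the oxidative burst, had 82.9, 38.8, 40.4 and 40.6 in mock and 102, 58.6, 91.5 and 186 in zaxinone, with overlap. Its relative PRXCB, 93.3% identical, was listed as higher in Col-0, d14 and kai2, by 1.11, 2.08 and 1.24, while Prx37, 78.7% identical, was listed as lower in all 4 genotypes. The glucosyltransferase gene AT1G05675 had 17.7 ± 8.82 and 45.2 ± 17.3 with overlap, beside UGT74E2, 88.1% identical, with 2.24 in the authors' Col-0 table and 3.88 (d14), 1.92 (kai2) and 3.77 (max2) in those of the mutants. Reads of such pairs may be shared.

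Some relatives went the other way. RR17, 89.3% identical to RR16, was listed as lower in Col-0 and d14, at -1.91 and -2.11 in the authors' deposited tables. AT1G66860, 80.5% identical to AT5G38200, was listed as lower in all 4 genotypes, at -2.0002 in Col-0 and between -1.96 and -3.95 in the mutants. AT5G38200 itself had 4968, 4983, 4543 and 4643 in mock and 9055, 9976, 9199 and 11801 in zaxinone, so the 2 genes of this pair were listed in opposite directions within the same libraries.

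Few members were on the pathway lists, also where a list held many genes raised in Col-0. Of 27 pathway lists 6 held a member, 1 each, and 21 held none. On the detoxification list 29 of 96 matched genes were listed as higher in Col-0, 21 of them in all 3 mutants too, 1 was listed as lower, and none was a member. On the list of suberin and the endodermal barrier 11 of 28 were higher and none lower, all 11 in the 3 mutants as well. Of the 164 members 158 were on none of these lists. The members were 164 of the 25041 genes tested in Col-0, so lists of such sizes would hold few or none in any case. The share of all tested genes on the lists was not computed. The counts of members on pathway lists, here and above, therefore do not set the members apart.

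The rule had a limit on both sides. Just inside the fold limit stood NOL, AT1G02470 and AT3G23930, with log2 fold changes of 1.002, 1.003 and 1.003 in the authors' deposited table. Just inside the limit of 0.05 stood AT1G08547, AT2G11280 and CYCB1;5, with adjusted p-values of 0.0485, 0.0481 and 0.0481 there. The Col-0 gene nearest to the members on the other side of the direction rule, AT1G77145, had -1.0002. Genes just outside the fold and p limits were not listed and were not analysed here.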

How the data were processed

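Roots of 4 genotypes, each with 4 mock and 4 zaxinone libraries, were sequenced after selection of polyadenylated RNA, per the labels' protocols. Per the submitters' processing notes HISAT2 and StringTie were used, with no version stated. Which genome build, gene annotation and counting tool were used, and whether strand was counted, is not given in the sources used here. Per the file headers, each of the 4 deposited tables gives raw read counts, normalized counts (a signal on the count scale), FPKM, and, per listed gene, the log2 fold change with its raw and adjusted p-value. Dividing a deposited raw count by a factor of its library (0.813 to 1.23 in Col-0) gave the authors' normalized count. The deposited normalized column of Col-0 zaxinone replicate 2 held a constant and was not used, and its values were rebuilt with a factor recovered from the authors' group mean. Library totals were recovered from the deposited counts and FPKM. The number of genes tested was read from the ratio of the deposited adjusted and raw p-values. These p-values cover the spread among libraries, which may be technical.

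Members were chosen by listing and by mean FPKM. Members and gene lists were chosen with earlier results of these data known, and 4 lists (starch, chlorophyll breakdown, root stem cell niche, prenyl diphosphates) were written after the members had been seen. Sizes come from edgeR 4.0.16 (quasi-likelihood fit in R 4.3.3, the authors' factors as library scale) on the counts of all 1835 listed Col-0 genes. Each standard error is the size of the log2 fold change divided by the square root of the F statistic of that fit. The spread behind it was estimated only on genes listed as changed, so the standard errors may be too small. No p-value of that fit was used, since the listing used the same values. The script was tested on simulated data. The floor was 3 counts per library, and bounds against it cover counting error only.

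All 1835 listed Col-0 genes matched the RefSeq annotation of TAIR10.1, from which symbols, types, coordinates and promoters were taken, and 117 symbols on the lists had no single match. Relatives were found with blastp 2.17.0 on translated coding sequences (at least 80% of both lengths aligned). Alternatives used DESeq2 1.42.0, limma-voom of limma 3.58.1, TMM, library totals, a count filter, the replicate number as a block and each library left out.

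Genes named in the text were, among the members, the 12 with the largest log2 fold change, the 8 with the highest zaxinone FPKM, those on a pathway list, the 2 with the largest change in each class of 3 or more, the 3 nearest to the fold limit in the authors' deposited table and those with a member within 10 kb. The genes nearest to the p limit are given with the limits of the rule. In addition 29 genes were named after their values had been seen, among them BBM, RGF5, HB4, LSF1, CT-BMY, ACD1, SPS2, AT3G02480, MYB30, PRXCA and the 2 microRNA precursors.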

Additional observations from a re-analysis of the deposited data

Results flagged for a closer look

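Among the named genes, 164 groups of 4 Col-0 libraries were examined for a single library far from the other 3 (by Dixon's ratio at its 95% limit), and 9 groups, or 5.49%, were flagged. Chance flags about 1 in 20 groups. In mock replicate 1, AT3G23930 stood at 165 normalized counts against 103 to 107 in the other mock libraries, PRXCA at 82.9 against 38.8 to 40.6, and CT-BMY at 61.0 against 35.1 to 36.9. In mock replicate 3, AT1G05675 stood at 30.9 against 11.9 to 14.6, and AT2G12380 at 1.06, which is 1 read, against 0. In zaxinone replicate 3, AT4G08115 had 168, while the remaining zaxinone libraries had 31.5 to 54.7, and AT5G18636 had 38.1 against 18.6 to 20.7. CNGC11 stood at 130.5 in zaxinone replicate 1 against 3.91 to 21.1, and the bHLH gene AT1G10585 at 46.9 in zaxinone replicate 2 against 2.43 to 4.50.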

How the results depend on the processing

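No alternative turned the direction of a named gene: of 1214 values over 15 alternatives, 1178 moved by less than 1 SD between libraries, 36 moved by more and 0 reversed. The named genes were chosen as raised in these same libraries, so a reversal was unlikely from the start and its absence carries no evidence of its own. The number of members was 81 with a mean of at least 50 counts. It was 60 and 27 at log2 fold changes of at least 1.5 and 2 in the authors' deposited table, and 98 at an adjusted p under 0.01. Leaving out each library gave medians of 1.2004 to 1.42, 128 to 158 members at a log2 fold change of 1 or more, and 127 to 148 without overlap. Scaling by DESeq2 size factors over listed genes gave a median of 1.17 and 113 members at 1 or more. TMM, also over listed genes only, gave 1.55 and 164. Each such scaling moves all genes of a library together, and it was set on genes listed as changed. The labels name no block. Same-numbered mock and zaxinone libraries deviated with correlations of 0.03, 0.26, 0.18 and 0.04 over 1395 listed genes. Only replicate 2 correlated best with its own number. These values, from genes listed as changed, cannot settle whether the replicate numbers pair the libraries. With the replicate number as a block the median was 1.32 and 155 members lay at 1 or more. In the 200 bases before the start, ACGTG was found in 33.6%, TTGAC in 40.9% and CCGAC in 8.03% of the members, beside 19.8%, 38.7% and 10.1% of all promoters. With 60% or 80% identity as the limit, 20 or 8 members had a listed relative. The cause of these shifts was not tested.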
